A study of Mus musculus with 10 samples.

Results

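The MHC class II presentation genes are 10 genes of antigen display, chosen by symbol: H2-Aa, H2-Ab1, H2-Eb1, Cd74, H2-DMa, H2-DMb1, H2-DMb2, H2-Oa, H2-Ob and Ciita. They are 10 of 17097 genes measured in epididymal white fat, a visceral depot lying next to the testis, and 19 probe sets map to 1 of them alone. Each gene was represented by its probe set of highest mean signal across the 10 arrays. The mice were males on a C57/Bl6 background, 8 to 12 weeks old at the start. They carried a null allele of ASC (ASC-/-, n = 3), a null allele of caspase-1 (Casp1-/-, n = 3) or neither (WT, n = 4). All 3 genotypes were fed the same diet with 45 energy% of fat for 16 weeks, so no lean group stands beside them. ASC, encoded by Pycard, is the adaptor and caspase-1 the protease of the inflammasome, which releases active interleukin-1 family cytokines. The sources used here do not say how the alleles were made or whether the mice were littermates.

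Class II molecules are pairs of an alpha and a beta chain that show peptides from endocytosed proteins to CD4 T cells. H2-Aa and H2-Ab1 encode the 2 chains of I-A, and H2-Eb1 the beta chain of I-E. Cd74, the invariant chain, fills the groove of new molecules, H2-DM exchanges its remnant for peptide, H2-DO holds H2-DM back, and Ciita is the coactivator that switches the promoters on. B cells, dendritic cells and macrophages carry the molecules, and in obese fat macrophages are abundant.

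The class II promoters are known for an X box, bound by RFX, and a Y box, bound by NF-Y, at a fixed distance, and the pair is shown here as background on how these genes are controlled. RefSeq windows of the GRCm38.p6 assembly, from 250 bases before to 50 after a gene's start, matched 7 of the 10 genes, with 8 windows, and did not match H2-Ab1, Cd74 or Ciita. On either strand, the letters GNAAC (the core of the X box) followed after 15 to 45 bases by ATTGG (the Y box) stood in 4.93% of all 32851 windows. They stood in 5 of the 7 matched genes, and since the motifs were chosen after these promoters had been read, that count is a description and no comparison with the other windows. The stretches below run from 60 bases before the Y box to 15 after it, on the strand of the gene, with both motifs in capitals.
H2-Aa (chr17:34287852-34287931, minus strand): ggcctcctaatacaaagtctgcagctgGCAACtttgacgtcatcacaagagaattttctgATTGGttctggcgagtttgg
H2-Eb1 (chr17:34305748-34305827, plus strand): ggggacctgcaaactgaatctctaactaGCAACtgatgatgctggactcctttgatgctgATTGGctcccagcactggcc
H2-DMb1 (chr17:34153070-34153149, plus strand): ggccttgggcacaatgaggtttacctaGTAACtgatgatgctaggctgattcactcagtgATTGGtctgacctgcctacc
H2-DMb2 (chr17:34145099-34145178, plus strand): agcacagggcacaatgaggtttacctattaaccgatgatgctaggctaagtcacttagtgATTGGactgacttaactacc
H2-Oa (chr17:34092276-34092355, plus strand): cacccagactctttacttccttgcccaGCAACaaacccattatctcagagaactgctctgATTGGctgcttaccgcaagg
H2-Ob (chr17:34238788-34238867, plus strand): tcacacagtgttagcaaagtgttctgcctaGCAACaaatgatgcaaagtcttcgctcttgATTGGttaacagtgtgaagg

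The gap between the motifs was 28 bases in H2-Aa, H2-DMb1 and H2-Oa, 27 in H2-Eb1 and 25 in H2-Ob. H2-DMb2 holds the Y box with no GNAAC at that distance before it, and its stretch has 67 of 80 bases in common with that of H2-DMb1, against 19 to 33 for every other pair shown. The 2 windows of H2-DMa hold no such pair, which says only that these letters do not stand in them. A shared motif is a description and says nothing of how each gene moved below, since H2-Oa and H2-Ob have it and lay near background.

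The values are log2 signals, on which 1 unit is a doubling. Control probe sets with no target in mouse RNA reached 5.01 on single arrays, with array medians of 2.91 to 3.15. Pycard lay at 3.20 to 3.71 on the ASC-/- arrays and Casp1 at 4.69 to 4.98 on the Casp1-/- arrays, which fits the labels. The mean of 8 adipocyte markers was 10.16 to 11.42 on the 10 arrays. Poly-A spike-in controls, bacterial transcripts in the labelling reaction, split the arrays into 2 sets. The 3 Casp1-/- arrays and WT replicate 1 had means of 7.51 to 8.07, and all other arrays had 5.76 to 6.50. With that set as a block, the Casp1-/- difference is set by WT replicate 1 only, and that of ASC-/- by WT replicates 2 to 4. Epididymis markers were uneven, with a mean of 5.28 on Casp1-/- replicate 2, 4.31 on ASC-/- replicate 1, 4.78 and 4.69 on WT replicates 1 and 2, and 3.50 to 3.80 on the rest. On average 7 of the 8 markers were within the range of the controls. The spread lay mainly in Spink8 (SD 3.76 to 4.42 within groups) and in Adam7 (SD 2.45 in Casp1-/- fat), so these means rest on few genes.

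**Figure D1:**
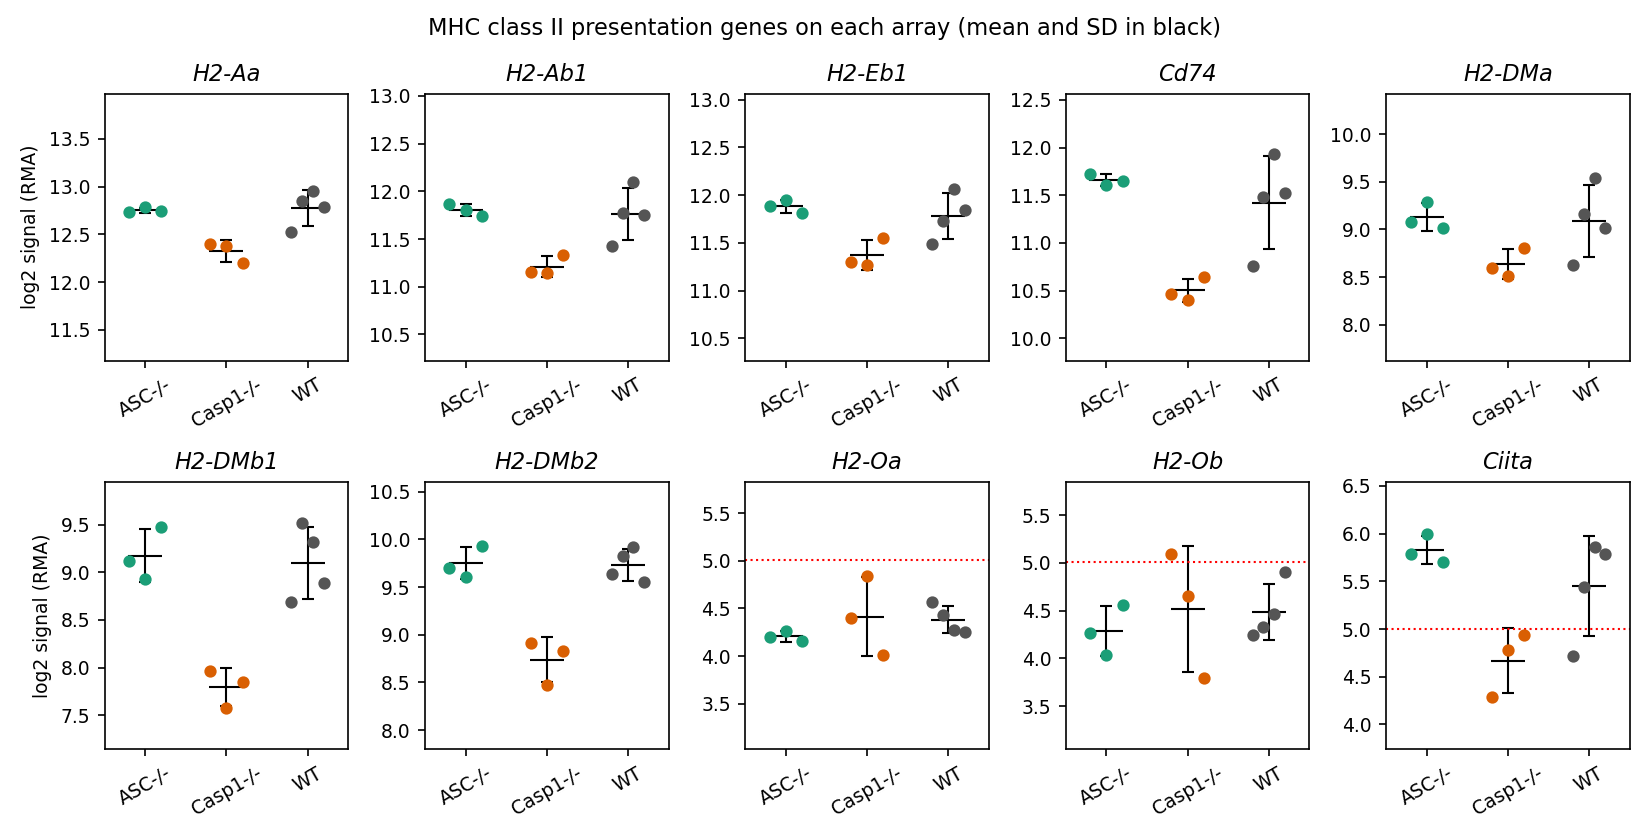
Log2 signal (RMA) of each gene on each array, 1 point per mouse, with group mean and SD in black; every panel spans the same log2 range, and the dotted red line is the highest control probe set (5.01). The Casp1-/- arrays lie below all ASC-/- and WT arrays for H2-DMb1, H2-DMb2, H2-Aa, H2-Ab1 and Cd74, while H2-Oa and H2-Ob stay near the line.

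In Casp1-/- fat 8 of the 10 class II genes were below WT fat, and 5 fell past the threshold, an adjusted p under 0.05 over all genes in limma's moderated test. Over all genes 3.86% fell, 4.31% rose and 8.17% changed in either direction. The 5 were H2-DMb1, H2-DMb2, Cd74, H2-Ab1 and H2-Aa, and the median of all 10 was -0.50 on the log2 scale, beside 0.041 over all genes. The same 5 genes had every Casp1-/- array below every WT array, as 9.60% of all genes did, and 0 had every Casp1-/- array above every WT array, as 15.1% of all genes did. Of the 10 genes, 8 had an unadjusted p under 0.05, beside 27.6% of all genes. These calls depended on the fit: with the spike-in set as a block 0 of the 10 passed, with only the Casp1-/- and WT arrays fitted 2 passed, and H2-Aa, H2-Ab1 and Cd74 lost their call when any array but WT replicate 1 was left out. In this bulk tissue, fewer cells of a type and less RNA per cell cannot be told apart.

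Among the probe sets that stand for the genes, those of the H2-DM beta chains had the largest differences. H2-DMb1 had 7.96, 7.58 and 7.85 in Casp1-/- fat, against 8.69, 9.51, 9.31 and 8.88 in WT fat. Even its highest Casp1-/- array lay below the lowest WT array. It fell 2.47-fold (log2 difference -1.30 ± 0.21, SE, limma adjusted p = 0.0134). The probe set standing for H2-DMb2 had 8.92, 8.47 and 8.83 in Casp1-/- fat, against 9.63, 9.83, 9.92 and 9.55 in WT fat. The groups were again apart, and the difference was -0.99 ± 0.14 (SE, limma adjusted p = 0.00985). The name of this probe set carries the suffix that marks probes shared between transcripts, and the H2-DMb2 probe set without that suffix lay between 3.50 and 4.40 on every array. Since H2-DMb1 and H2-DMb2 are close copies, the signal cannot be assigned to H2-DMb2 alone. H2-DMa, the alpha chain that both beta chains pair with, had 8.59, 8.51 and 8.81 in Casp1-/- fat, against 8.63, 9.16, 9.54 and 9.02 in WT fat. WT replicate 1 lay among the Casp1-/- arrays, and the difference of -0.45 ± 0.19 (SE) did not pass (limma adjusted p = 0.156).

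Cd74, the invariant chain, had 10.46, 10.40 and 10.64 in Casp1-/- fat, against 10.76, 11.48, 11.93 and 11.52 in WT fat. WT replicate 1 lay only just above the Casp1-/- arrays, far from the other WT arrays. Cd74 fell 1.89-fold (-0.92 ± 0.22, SE, limma adjusted p = 0.039).

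The chains that bind peptide had smaller differences on the probe sets that stand for them, though not on every other probe set. H2-Aa had 12.40, 12.37 and 12.20 in Casp1-/- fat, against 12.52, 12.85, 12.96 and 12.78 in WT fat, a difference of -0.45 ± 0.11 (SE, limma adjusted p = 0.0361). H2-Ab1 had 11.15, 11.15 and 11.34 in Casp1-/- fat, against 11.43, 11.77, 12.10 and 11.75 in WT fat, a difference of -0.55 ± 0.14 (SE, limma adjusted p = 0.0434). In both genes WT replicate 1 was the WT array nearest to the Casp1-/- arrays. H2-Eb1 had 11.30, 11.26 and 11.55 in Casp1-/- fat, against 11.49, 11.73, 12.07 and 11.84 in WT fat. Casp1-/- replicate 3 and WT replicate 1 crossed, and the difference of -0.41 ± 0.13 (SE) did not pass (limma adjusted p = 0.0837). C57/Bl6 mice are known to transcribe H2-Eb1 without its partner H2-Ea, whose promoter is deleted in this haplotype. H2-Ea lay at 4.49 to 5.03 on the 10 arrays, beside the highest control.

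The size of these falls depended on the probe set. For H2-Aa the probe set that stands for the gene gave -0.45, and the others gave -0.57 and -1.18, the last a 2.27-fold fall with 7.82, 7.48 and 7.32 in Casp1-/- fat, against 7.88, 8.72, 9.42 and 8.87 in WT fat. For H2-Ab1 the 3 probe sets gave -0.55, -0.87 and -0.88. Fitted over all probe sets, adjusted p was 0.0396, 0.0527 and 0.0483 for H2-Aa and 0.0475, 0.0791 and 0.0581 for H2-Ab1. All 6 were lower in Casp1-/- fat. The H2-Ab1 probe set at -0.55 and the H2-Aa probe set at -0.57 carry the same suffix as the probe set standing for H2-DMb2. Those at -0.45 and -1.18 for H2-Aa and at -0.88 for H2-Ab1 carry a suffix for probes that may bind other transcripts. The part of other transcripts in these signals was not tested. For both chains of I-A the chosen probe set gave the smallest fold, and the part of signal strength in this was not tested.

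**Figure D2:**
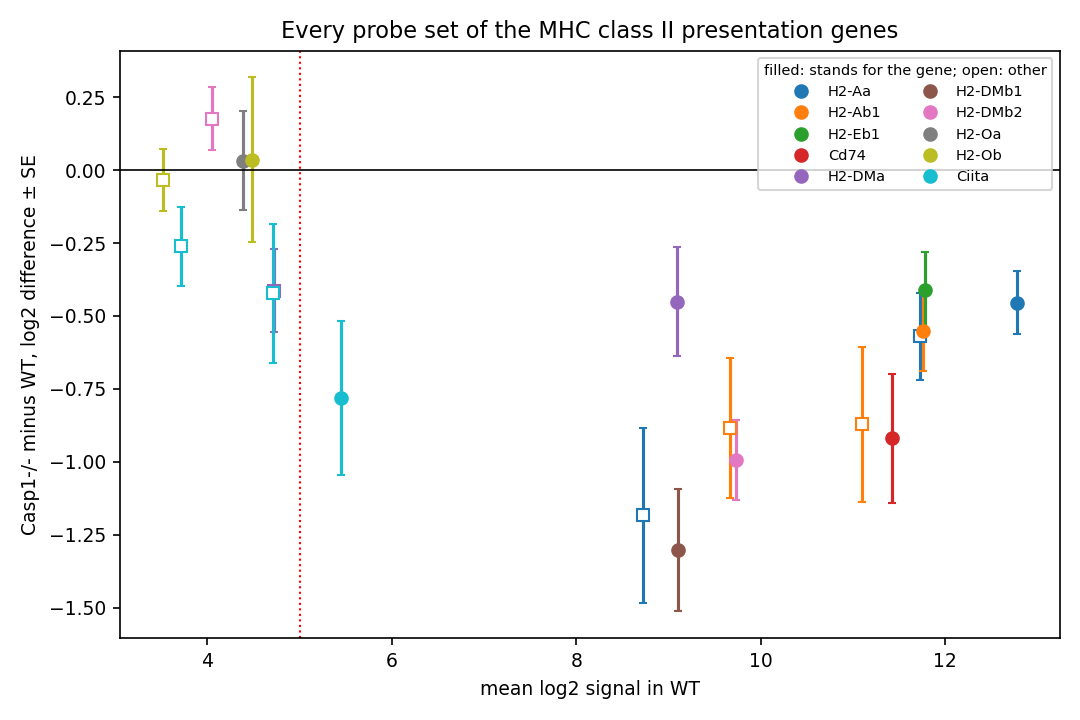
Casp1-/- minus WT log2 difference ± SE against the mean log2 signal in WT for every probe set of the 10 genes, filled where it stands for the gene and open otherwise; the dotted red line is the highest control (5.01). The open H2-Aa and H2-Ab1 points at lower signal lie below their filled points, and the probe sets left of the line are within the range of the controls.

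Unequal change of these genes was tested on differences taken within each array. H2-DMb1 minus the mean of H2-Aa, H2-Ab1 and H2-Eb1 was 0.83 lower in Casp1-/- fat than in WT fat, and every Casp1-/- array lay below every WT array (exact two-sided permutation p = 0.0571, the smallest that 3 against 4 arrays allow). Cd74 minus the same mean was 0.45 lower, with WT replicate 1 among the Casp1-/- arrays (exact two-sided permutation p = 0.114). Over the 12 such tests run, adjusted p was 0.196 for both. H2-DMb1 and Cd74 already had larger differences than the chosen probe sets of the chains on these same arrays. Neither p is therefore independent of the values that single these genes out. The probe sets of the chains limit this reading, because the last one of H2-Aa had a difference (-1.18) close to that of H2-DMb1 (-1.30).

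Ciita was dim, and H2-Oa and H2-Ob were at background. Ciita had 4.29, 4.78 and 4.94 in Casp1-/- fat, against 4.72, 5.44, 5.86 and 5.79 in WT fat. All Casp1-/- arrays and WT replicate 1 were below the highest control, so the size of the difference (-0.78 ± 0.27, SE, limma adjusted p = 0.098, not past the threshold) is uncertain. H2-Oa had 4.40, 4.84 and 4.01 in Casp1-/- fat, against 4.57, 4.43, 4.28 and 4.26 in WT fat. H2-Ob had 5.10, 4.66 and 3.80 in Casp1-/- fat, against 4.24, 4.33, 4.46 and 4.90 in WT fat. Of these values a single Casp1-/- array of H2-Ob was above the highest control, and the groups overlapped in both genes. In mice H2-DO is known mainly from B cells, and the mean of 12 B cell markers was 5.09 to 5.55 in Casp1-/- fat and 5.42 to 5.58 in WT fat.

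With the spike-in set as a block, the 8 genes that were below WT fat had differences nearer to 0, and H2-Oa and H2-Ob, at background, had larger ones. In that fit 0 of the 10 class II genes and 120 of all genes were past the threshold in limma. H2-DMb1 was 1.86-fold lower (-0.89, adjusted p = 0.229) and the shared H2-DMb2 probe set 1.86-fold lower (-0.89, adjusted p = 0.122). Cd74 was at -0.25 (adjusted p = 0.666), H2-Aa at -0.20, H2-Ab1 at -0.22, H2-Eb1 at -0.12, Ciita at -0.049 and H2-DMa at 0.0039. H2-Oa was at -0.15, against 0.032 without the block, and H2-Ob at 0.28, against 0.035 without it. Without WT replicate 1, which leaves the Casp1-/- and WT arrays in separate spike-in sets, 8 of the 10 fell past the threshold. Leaving out 1 array at a time, H2-DMb2 passed every time, H2-DMb1 all but once (without Casp1-/- replicate 2, adjusted p = 0.0667), and H2-Aa, H2-Ab1 and Cd74 only without WT replicate 1. Without Casp1-/- replicate 2, 1 class II gene and 64 of all genes were past the threshold. Genotype and spike-in set can be told apart only through WT replicate 1.

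**Figure D3:**
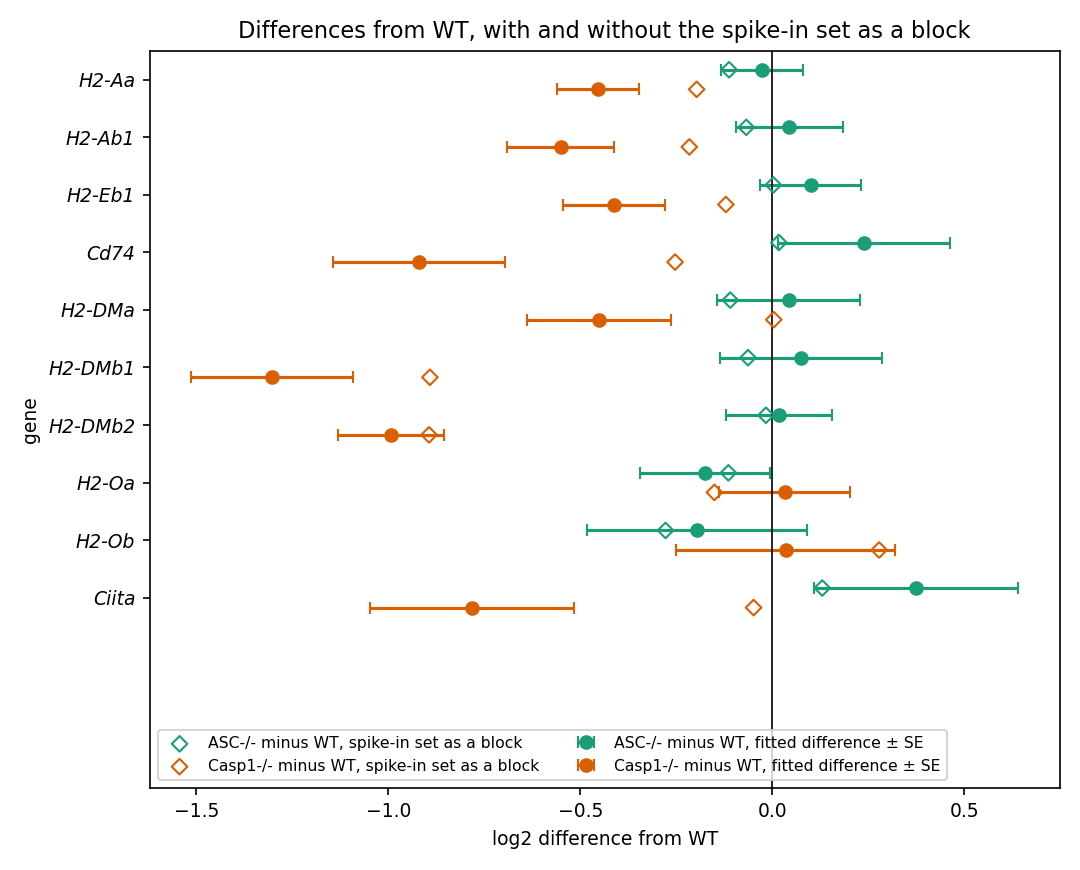
Log2 difference from WT for each gene in ASC-/- and Casp1-/- fat (filled circles, fitted difference ± SE) and the same with the spike-in set as a block (open diamonds). With the block the Casp1-/- diamonds of H2-DMb1 and H2-DMb2 both lie at -0.89, beside circles at -1.30 and -0.99. The diamonds of the other genes lie between -0.25 and 0.28, and the ASC-/- values lie around 0.

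In ASC-/- fat, limma called 0 of the 10 class II genes, and at an unadjusted p under 0.05 there were also 0. Over all genes 0.0351% passed (0.0175% higher and 0.0175% lower) and 2.00% had an unadjusted p under 0.05. In 0 of the 10 were the ASC-/- arrays all above or all below the WT arrays, beside 1.33% and 1.86% of all genes. The median difference of the 10 from WT was 0.043, beside 0.0050 over all genes, with 7 above and 3 below 0. H2-DMb1 had 9.12, 8.92 and 9.48 in ASC-/- fat, which overlapped the WT range of 8.69 to 9.51 (difference 0.074 ± 0.21, SE). The shared probe set of H2-DMb2 had 9.70, 9.61 and 9.93 (0.017 ± 0.14, SE). Cd74 had 11.73, 11.61 and 11.65, inside the WT range of 10.76 to 11.93 (0.24 ± 0.22, SE). H2-Aa had 12.73, 12.78 and 12.74 (-0.027 ± 0.11, SE), H2-Ab1 11.87, 11.80 and 11.75 (0.044 ± 0.14, SE) and H2-Eb1 11.89, 11.95 and 11.81 (0.10 ± 0.13, SE). All lay within the WT range. For Cd74 the SD was 0.061 over the 3 ASC-/- arrays, against 0.49 over the 4 WT arrays, and for H2-Aa it was 0.028 in ASC-/- fat, against 0.19 in WT fat. Ciita had the largest difference, with 5.79, 5.99 and 5.70 in ASC-/- fat (0.37 ± 0.27, SE), and its arrays too overlapped those of WT. H2-DMa had 9.08, 9.29 and 9.01, H2-Oa 4.16 to 4.27 and H2-Ob 4.04 to 4.56.

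Set directly against Casp1-/- fat, ASC-/- fat had the higher mean in 8 of the 10 class II genes. Of the 10 genes 5 were higher past the threshold and 0 lower, beside 3.85% higher, 3.54% lower and 7.39% in either direction over all genes. All ASC-/- arrays lay above all Casp1-/- arrays in 8 genes and below them in 0, beside 17.3% and 23.1% of all genes. An unadjusted p under 0.05 was found for 8 of the 10, beside 26.0% of all genes. The 5 were H2-DMb1 (2.60-fold, limma adjusted p = 0.0133), the shared H2-DMb2 probe set (2.01-fold, 0.0113), Cd74 (2.23-fold, 0.0254), Ciita (2.23-fold, 0.0419) and H2-Ab1 (1.51-fold, 0.0433). The Ciita fold is uncertain, since its Casp1-/- arrays lay within the range of the controls. H2-Aa (0.43, adjusted p = 0.0533), H2-Eb1 (0.51, 0.0586) and H2-DMa (0.49, 0.157) were higher without overlap but did not pass. With the spike-in set as a block, 0 of the 10 passed and the differences were 0.83 for H2-DMb1, 0.88 for the H2-DMb2 probe set and 0.27 for Cd74. Those values are indirect, because no ASC-/- array lies in the high set. Without ASC-/- replicate 1, or without Casp1-/- replicate 2, 0 passed, and 47 and 68 of all genes did.

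Markers of the cells that carry class II moved unequally. Of 18 pan-macrophage markers 12 fell in Casp1-/- fat (median -1.42), among them Tyrobp, a signalling adaptor of myeloid receptors (2.84-fold), Mpeg1, a pore protein of phagosomes (3.09-fold), and the lysosomal protein Cd68 (4.33-fold). Their mean was 9.16, 8.88 and 9.18 in Casp1-/- fat, against 9.69, 10.11, 11.05 and 10.63 in WT fat. The mean of H2-Aa, H2-Ab1 and H2-Eb1 followed the same order of groups, with 11.62, 11.60 and 11.69 in Casp1-/- fat, against 11.81, 12.12, 12.37 and 12.12 in WT fat. WT replicate 1 was the lowest WT array and WT replicate 3 the highest in both. The 4 arrays with the lowest macrophage means were the 4 of the high spike-in set. With that set as a block 0 of the 18 markers passed, with Tyrobp at -0.98 (limma adjusted p = 0.186), Mpeg1 at -1.12 and Cd68 at -1.26. Without Casp1-/- replicate 2 also 0 passed, and without WT replicate 1 there were 17. The part of macrophage number in the class II falls was not tested. Relative to the macrophage markers on the same array, the 3 chains were 0.82 higher in Casp1-/- fat than in WT fat, with no overlap (exact two-sided permutation p = 0.0571, the smallest possible, 0.196 adjusted over the 12 tests). WT replicate 1, in the same spike-in set, lay nearest, at 2.12, beside 2.46 to 2.71 in Casp1-/- fat. The choice of probe set limits this reading. Other probe sets fell more, with -0.57 and -1.18 for H2-Aa and -0.87 and -0.88 for H2-Ab1. Cd74 relative to these markers was 0.38 higher (exact permutation p = 0.114), with overlap.

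**Figure D4:**
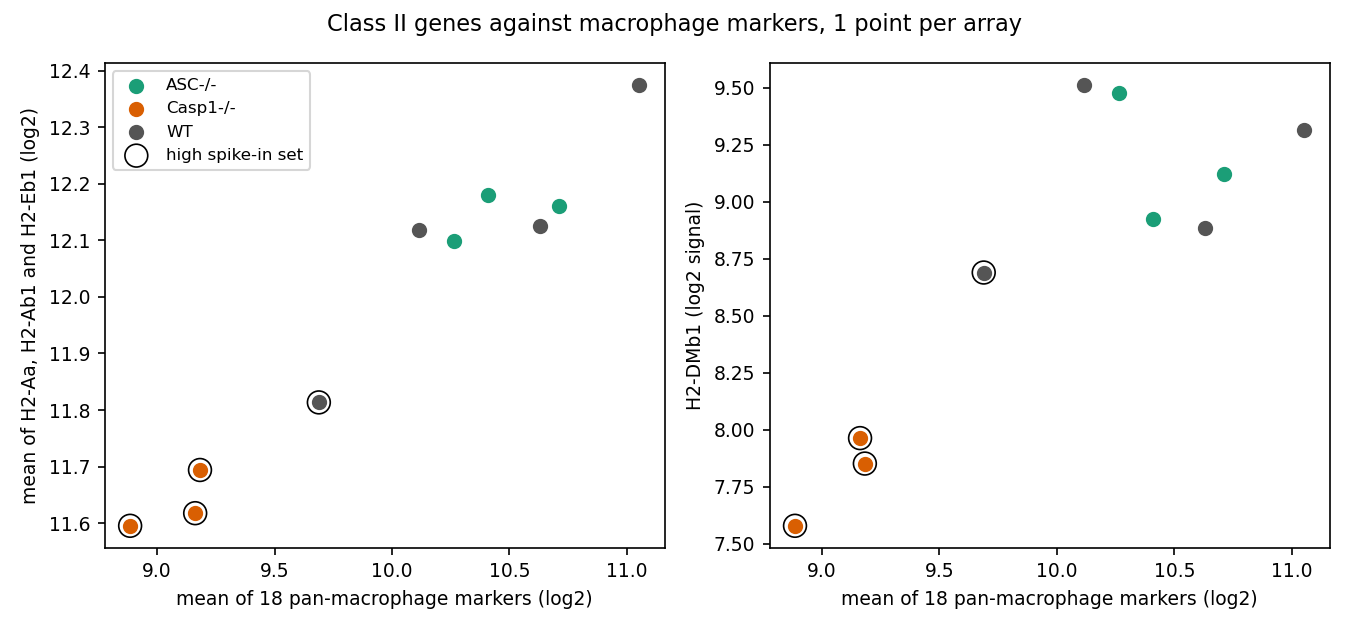
Mean log2 signal of H2-Aa, H2-Ab1 and H2-Eb1 (left) and log2 signal of H2-DMb1 (right) against the mean of 18 pan-macrophage markers, 1 point per array coloured by genotype, with circles round the arrays of the high spike-in set. The 3 Casp1-/- arrays lie at the lower left, WT replicate 1 lies between them and the others, and the ASC-/- arrays lie among WT replicates 2 to 4.

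Of 12 dendritic cell markers 2 fell and 1 rose in Casp1-/- fat (median -0.063). The integrin Itgae, which rose, averaged 4.56 in Casp1-/- fat and 4.02 in WT fat, within the range of the controls. Those that fell, the integrin Itgax (3.44-fold) and the lectin Clec10a (1.89-fold), are also known from macrophages. The defining markers Flt3 (4.54 in Casp1-/- fat and 4.41 in WT fat) and Xcr1 (3.11 in Casp1-/- fat and 3.18 in WT fat) lay within the range of the controls. Cd209a was 2.02-fold higher in Casp1-/- fat (7.08, against 6.07 in WT fat, limma adjusted p = 0.088). Zbtb46, near the highest control, was also higher (5.19, against 4.98 in WT fat). Both had every Casp1-/- array above every WT array, as 15.1% of all genes did, and neither passed. Batf3 was lower, with overlap (6.90, against 7.21 in WT fat). Of 12 B cell markers 0 were called by limma (median 0.014), and 2 had an unadjusted p under 0.05, beside 27.6% of all genes. Those 2 were Cd22, 1.94-fold lower (6.06 in Casp1-/- fat and 7.02 in WT fat, limma adjusted p = 0.0557), and Ebf1, 1.36-fold higher (10.20 in Casp1-/- fat and 9.75 in WT fat, 0.109). Jchain was 2.11-fold lower (8.58 in Casp1-/- fat and 9.66 in WT fat, 0.252). In each of these the groups did not overlap, as in 9.60% of all genes for lower and 15.1% for higher Casp1-/- arrays. Pax5 (3.37 in Casp1-/- fat and 3.32 in WT fat) and Cd79a (4.15 in both) were within the range of the controls, as were 6 of the 12 on average. Of 13 T cell markers, which include the CD4 partner of class II, 0 passed, 2 had an unadjusted p under 0.05, and 11 lay within the range of the controls on average. Of 8 adipocyte markers 1 rose, the adipogenic factor Pparg (1.84-fold), and the median difference was 0.54. An unadjusted p under 0.05 was found for 4, beside 27.6% of all genes. The mean of these markers was 11.31 to 11.42 in Casp1-/- fat and 10.16 to 11.16 in WT fat, without overlap. This mean was thus higher where the class II genes were lower, and the part of adipocytes in the class II differences was not tested. Slc2a4, the insulin-responsive glucose transporter (2.24-fold higher, limma adjusted p = 0.0847), Retn, the adipokine resistin (2.20-fold higher, 0.106), and Lipe, hormone-sensitive lipase (1.70-fold higher, 0.0771), did not pass. The remaining adipocyte markers differed less and did not pass either. Lep was at 0.31, Adipoq at 0.22, Fabp4 at -0.038 and Pnpla2, within the range of the controls on average, at -0.17. With the spike-in set as a block 0 of the adipocyte and 0 of the dendritic cell markers passed. Of 8 epididymis markers 0 passed, with 1 at an unadjusted p under 0.05. In ASC-/- fat 0 members of any of these 5 lists or of the macrophage list passed, and 2, 1, 7, 0, 0 and 0 had an unadjusted p under 0.05, in the order of dendritic, B cell, T cell, adipocyte, epididymis and macrophage markers. Over all genes 2.00% did. The B cell marker among them was Jchain, 3.32-fold lower in ASC-/- fat (limma unadjusted p = 0.0132), more than in Casp1-/- fat. All its ASC-/- arrays lay below all WT arrays, as in 1.86% of all genes. Of the 13 T cell markers 12 were below WT fat (median -0.27), mostly within the range of the controls, and Lat was higher (0.99).

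Other steps of the class II pathway fell in part. Of 11 genes of processing and loading 6 fell in Casp1-/- fat (median -0.47). Ctss, the cathepsin that trims the invariant chain, fell 2.18-fold to 11.80 ± 0.31 in Casp1-/- fat, against 12.92 ± 0.36 in WT fat (SD, n = 3 and 4, limma adjusted p = 0.018). Lgmn, an endopeptidase of the same compartment, fell 2.53-fold, and Ifi30, the thiol reductase of endosomes, 2.59-fold. Ctss is also in the macrophage list, and these enzymes are abundant in macrophages. Of 12 class II transcription genes 1 fell, the myeloid factor Spi1, with 5.78 ± 0.55 in Casp1-/- fat, against 8.08 ± 0.96 in WT fat (SD, n = 3 and 4, limma adjusted p = 0.0252). The RFX subunits did not pass, with -0.11 for Rfx5, -0.052 for Rfxap and 0.093 for Rfxank. Of the NF-Y subunits, Nfya was 2.05-fold lower (limma adjusted p = 0.112), Nfyb was at 0.13 and Nfyc at -0.034. In this list 5 of 12 genes had an unadjusted p under 0.05, beside 27.6% of all genes. They were Spi1, Nfya, Irf8 (-0.47) and Creb1 (-0.24), all lower, and Kat2b (0.22), which was higher. Spike-in means moved with these lists as with the class II genes, and with that set as a block 0 members of either list passed. Without Casp1-/- replicate 2, 0 members of either list passed, and without WT replicate 1 there were 9 and 3.

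MHC class I presentation serves CD8 T cells. Of its 15 measured genes 1 rose and 1 fell in Casp1-/- fat (median -0.059). An unadjusted p under 0.05 was found for 7, with Tapbpl alone higher, beside 27.6% of all genes. The 2 that passed were Tapbpl, a peptide editor (1.29-fold higher), and the chaperone Canx (1.28-fold lower), and with the spike-in set as a block 0 passed. The class I heavy chain H2-K1 (1.17-fold lower, limma adjusted p = 0.119), the class I heavy chain H2-D1 (1.22-fold lower, 0.0827) and the nonclassical H2-T23 (1.79-fold lower, 0.0623) did not pass. In each of them all Casp1-/- arrays lay below all WT arrays, as in 9.60% of all genes. Of 16 genes of the interferon-gamma response, the main known inducer of Ciita outside B cells, 0 were called by limma, 2 having an unadjusted p under 0.05 (median -0.028). In ASC-/- fat 0 genes passed in any of these 4 lists, and 0, 0, 0 and 3 had an unadjusted p under 0.05 in processing, transcription, class I and interferon-gamma, beside 2.00% of all genes. Of the 16 interferon-gamma genes 11 were below WT fat (median -0.15). Against Casp1-/- fat, ASC-/- fat was past the threshold for 7 processing genes (all higher), 1 transcription gene (Spi1, higher), 3 class I genes (Calr and Canx higher, Tapbpl lower) and 1 interferon-gamma gene (Gbp3, lower).

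Genes with the most similar profile were ranked by the root mean square difference of centred log2 values over the 10 arrays. The candidates were 9652 genes outside the 10 class II genes that were brighter on average than the highest control. For Cd74, whose own values varied by 0.55 around their mean, these were Trim47 (0.097), Tubb6 (0.097), Rhoc (0.10), S100a4 (0.10) and Wdr91 (0.11). For H2-Ab1, which varied by 0.31, they were Irf2 (0.061), Naa20 (0.066), Leprot (0.070), Hat1 (0.071) and Anapc11 (0.072). For H2-DMb1, which varied by 0.66, they were Ccl9 (0.23), Map4k1 (0.24), Casp4 (0.25), Hs6st1 (0.25) and Slfn2 (0.26). The shared H2-DMb2 probe set, left out as 1 of the 10, was nearer to H2-DMb1 (0.22) than any of these. H2-DMb1 thus had no listed neighbour as near as those of Cd74 and H2-Ab1. Casp4, 1 of its neighbours, averaged 6.45 in Casp1-/- fat, against 8.02 in WT fat (limma adjusted p = 0.0042). The part of the Casp1 null allele itself in the Casp4 profile was not tested. All 10 arrays, with 2 spike-in sets and 3 genotypes, are shared by these profiles, so the ranking is a description.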

How the data were processed

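RNA of epididymal fat of 10 mice was hybridised to 1 Affymetrix HT_MG-430 PM array each, per the labels. Per the submitters' processing notes, the authors used RMA, and the deposited series table holds its log2 output. RMA gives the probes of every array the same distribution before summarising them, so the level of a whole array does not report total RNA. After summarising, array medians were 4.29 to 4.36. No RMA version or genome build was found in the sources used here. Of 45141 probe sets, 28898 had 1 gene symbol, 551 several, 15588 none and 104 were controls. The brightest probe set on average stood for each of 17097 genes.

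Here limma 3.58.1 (R 4.3.3) fitted 1 mean per genotype to all genes with empirical Bayes (7 residual and 2.43 prior degrees of freedom). P-values were two-sided and adjusted over all genes by Benjamini-Hochberg, with 0.05 as threshold. The number of arrays limits the precision. Motifs were searched with Python 3.11.15. The spike-in means used 24 probe sets and the controls 23. Named genes were the 10 genes, H2-Ea, Pycard, Casp1, up to 3 genes per list with the smallest p, and 5 nearest profiles of 3 genes. Rfx5, Rfxap, Rfxank, Flt3, Xcr1, Pax5, Cd79a, Slc2a4, Retn, Lipe, H2-K1, H2-D1, H2-T23 and the neighbours on chromosome 17 were named after their values had been seen. So were Cd209a, Zbtb46, Batf3, Nfya, Nfyb, Nfyc, Irf8, Creb1, Kat2b, Cd22, Ebf1, Jchain, Adipoq, Lep, Fabp4 and Pnpla2. Genes and lists were chosen with earlier results of these data known, and the motifs after the promoters had been read. On simulated arrays, 78 of 100 genes changed by 1 log2 unit were found in the Casp1-/- contrast and 83 of 100 in the ASC-/- contrast. In the contrast of ASC-/- with Casp1-/-, 77 of 100 were found. Alternatives covered normalization, probe sets, dim genes, the empirical Bayes step, array weights, samples, blocks and a covariate.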

Additional observations from a re-analysis of the deposited data

How the results depend on the processing

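Counts for class II genes past the threshold were steady for ASC-/- minus WT (0 in every setting run) and moved for the other contrasts. Casp1-/- minus WT gave 2 of 10 (469 of all genes) with only the compared genotypes, 0 with the replicate block (9 of all genes), 0 with the spike-in set as a block (120 of all genes) and 3 with the actin 3' minus 5' covariate. Array weights gave 2998 of all genes, and leaving out the 4 arrays with high epididymis markers, a set chosen after seeing the data, gave 3470. ASC-/- minus Casp1-/- gave 2 of 10 with means over probe sets, 8 with array weights (3428 of all genes), 8 with only the compared genotypes (3248), 0 with the replicate block (19), 0 with the spike-in set (63), 1 with the actin covariate (231), and 674 of all genes without the 4 arrays. ASC-/- minus WT gave 3 of all genes with only the compared genotypes, with the replicate block and without the 4 arrays. Leaving out 1 array at a time, the class II counts ranged from 1 (without Casp1-/- replicate 2) to 8 (without WT replicate 1) in Casp1-/- minus WT, and from 0 (without ASC-/- replicate 1 or Casp1-/- replicate 2) to 7 (without WT replicate 1 or 3) in ASC-/- minus Casp1-/-. The counts of all genes ranged from 64 to 3018 in Casp1-/- minus WT, from 47 to 2615 in ASC-/- minus Casp1-/- and from 3 to 6 in ASC-/- minus WT. The replicate numbers share no stated source, and deviations of same-numbered arrays correlated between -0.26 and 0.19, so the numbers were not taken as pairs. The cause of these moves was not tested, except that fewer arrays or added terms leave fewer degrees of freedom.

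Apart from H2-DMb2 on its other probe set, directions turned only for differences that did not pass. That probe set, within the range of the controls, gave -0.38 for ASC-/- minus WT, 0.18 for Casp1-/- minus WT and -0.56 for ASC-/- minus Casp1-/- (adjusted p = 0.028). In ASC-/- minus WT, H2-DMb2 gave -0.013 with arrays centred, -0.18 with means over probe sets, -0.043 with the replicate block and -0.016 with the spike-in set. The spike-in set also gave -0.068 for H2-Ab1, -0.11 for H2-DMa and -0.063 for H2-DMb1. The actin covariate gave -0.049 for H2-Ab1 and -0.072 for H2-DMa. Without the 4 arrays H2-Ab1 was -0.15, H2-Eb1 -0.073, Cd74 -0.097 and H2-DMa -0.13. Other probe sets gave 0.0031 and 0.016 for H2-Aa and 0.076 for H2-Ob. Ranges with 1 array left out were -0.11 to 0.033 for H2-Aa, -0.068 to 0.16 for H2-Ab1, -0.11 to 0.19 for H2-DMa, -0.078 to 0.21 for H2-DMb1 and -0.075 to 0.087 for H2-DMb2. In Casp1-/- minus WT, H2-Oa gave -0.013 with quantile normalization, -0.0099 with the replicate block, -0.15 with the spike-in set, -0.021 with the actin covariate and -0.064 without the 4 arrays (range -0.18 to 0.23 with 1 array left out). H2-Ob gave -0.080 with array weights, -0.24 without the 4 arrays and -0.034 on its other probe set (range -0.26 to 0.39), and H2-DMa gave 0.0039 with the spike-in set. In ASC-/- minus Casp1-/-, the spike-in set gave -0.11 for H2-DMa and 0.036 for H2-Oa, the other H2-Ob probe set 0.11, and H2-Oa without the 4 arrays 0.010 (ranges -0.41 to 0.0049 for H2-Oa and -0.59 to 0.059 for H2-Ob).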

Other observations

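Of 9 costimulatory and checkpoint genes, which act beside class II at the contact with T cells, 1 fell and 1 rose in Casp1-/- fat (median -0.087). Cd83, known to keep class II molecules at the cell surface, was 7.79 ± 0.26 in Casp1-/- fat, against 9.39 ± 0.61 in WT fat (SD, n = 3 and 4, 3.02-fold lower, limma adjusted p = 0.0202). Cd274, which encodes the checkpoint ligand PD-L1, was 8.53 ± 0.16 in Casp1-/- fat, against 7.62 ± 0.33 in WT fat (1.88-fold higher, limma adjusted p = 0.0222). With the spike-in set as a block, which leaves WT replicate 1 alone to set the difference, neither passed, with Cd83 at -1.02 (adjusted p = 0.356) and Cd274 at 0.66 (adjusted p = 0.361). Neither passed when any 1 Casp1-/- array or WT replicate 4 was left out. In ASC-/- fat limma called 0 of the 9, and 0 were under 0.05 before adjustment. Marchf1, a ubiquitin ligase known to remove class II from the surface and chosen here after its values had been seen, was 5.87 ± 0.21 in Casp1-/- fat, against 6.87 ± 0.56 in WT fat, and did not pass (limma adjusted p = 0.0572).

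Of the 10 genes 8 lie on chromosome 17 among 15 genes in RefSeq order from H2-Oa to H2-Ea, with Cd74 and Ciita elsewhere. The 5 other tested genes of that stretch, named after their values had been seen, did not pass in any of the 3 comparisons (limma), and 1 had an unadjusted p under 0.05 in Casp1-/- against WT fat. In Casp1-/- fat, Psmb8 and Psmb9, subunits of the immunoproteasome, differed from WT by -0.39 (limma adjusted p = 0.083) and -0.12, and the chromatin reader Brd2 by -0.19. H2-Eb2 lay at 3.86 in Casp1-/- fat and 3.79 in WT fat, within the range of the controls, as did H2-Ea on average.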
